A study of Mus musculus with 55 samples.

Results

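The constitutive proteasome was followed here through 44 genes: the 20S core, the 19S regulatory particle, assembly factors, alternative activators and the NRF1 pathway, which controls proteasome gene transcription. They were 44 of 24475 gene symbols in a count table of mouse liver mRNA. The members are 7 genes of the 20S alpha ring, 7 of the 20S beta ring, 6 of the 19S ATPase ring, 13 other 19S subunits, 6 assembly factors, 2 alternative activators and 3 genes of the NRF1 pathway. They were listed by function, and the list came with the remark that Shfm1 moved against the rest, so their response to the Gls2 hairpin was known when they were chosen and is given as a description. All 44 were among the 13311 genes that passed the filter on low counts. The proteasome degrades proteins tagged with ubiquitin. Alpha subunits gate the 20S barrel, beta subunits line its inside and cut the chain, and the 19S particle binds ubiquitin chains, removes them and threads the substrate inward. When proteasome capacity falls short, the transcription factor NRF1, product of Nfe2l1, is released from the endoplasmic reticulum by the segregase VCP, cut by the protease DDI2 and raises the subunit genes together.

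The libraries came from livers of 55 male mice in 6 groups. OTC mice (B6EiC3Sn a/A-Otcspf-ash/J), which carry the spf-ash allele of the urea cycle gene Otc, gave 10 sh-Gls2, 8 sh-Glud1 and 8 control livers. WT mice (B6EiC3SnF1/J) gave 10 sh-Gls2, 9 sh-Glud1 and 10 control livers. Every mouse received an adeno-associated virus by vein at 4 months of age (week 0), which encoded a short hairpin RNA against Gls2 (liver glutaminase), one against Glud1 (glutamate dehydrogenase) or, in controls, a scrambled hairpin. All were moved to a diet with 40% protein at week 2, and livers were taken at week 5. The labels give no promoter or cell type for the hairpins, and OTC and WT differ in stock as well as in Otc. Each group is a set of separate mice, so the tests measure the spread between mice.

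Total counts per library lay between 14489866 and 22781052. Targets followed the labels: Gls2 averaged 198 CPM in OTC sh-Gls2 against 439 CPM in OTC control, and its mean in WT sh-Gls2 was 204 CPM, against 441 CPM in WT control. Glud1 averaged 444 CPM in OTC sh-Glud1 against 1068 CPM in OTC control. In WT sh-Glud1 its mean was 386 CPM, against 1035 CPM in WT control. Otc had a mean of 61.2 CPM in OTC control livers, against 522 CPM in WT control livers. CPM here is the depth-scaled count of a gene, after TMM adjustment of its library's total. Hepatocyte transcripts dominated every group, with 8 markers summing to 101413 CPM in OTC sh-Gls2 against 115011 CPM in OTC control livers, while WT livers had 111386 CPM under sh-Gls2 against 103610 CPM under control. OTC control mice 03 and 67 stood apart in several genes, and values without them are given for members whose calls depended on them. These are whole livers, where fewer cells of a type and less RNA per cell cannot be told apart.

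Stretches before the start of a few members show the sequence context in which the subunit genes sit, with starts and letters from the RefSeq promoter table on GRCm38.p6. The table held windows of 250 bases before to 50 after the start for 37 of the 44 members (Shfm1 under its current name Sem1). The first set shows the core of the antioxidant response element, the kind of site that NRF1 and NRF2 bind, written TGACNNNGC and searched on both strands, with the match in capitals. The stretch before Psmb5, which encodes the chymotrypsin-like subunit, is at chr14:54618023-54618067 on the minus strand. That before Vcp is at chr4:43000588-43000646 on the minus strand, and that before the ATPase gene Psmc6 at chr14:45329574-45329630 on the plus strand.
Psmb5: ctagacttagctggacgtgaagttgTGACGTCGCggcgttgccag
Vcp: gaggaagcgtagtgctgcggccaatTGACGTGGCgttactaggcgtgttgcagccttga
Psmc6: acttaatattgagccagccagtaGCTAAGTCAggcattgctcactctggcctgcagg
The second set shows a motif of ETS factors, CCGGAAG, on either strand in capitals. The stretch before Psmd2, a scaffold of the 19S base, is at chr16:20651601-20651651 on the plus strand. That before Psmd4, a ubiquitin receptor, is at chr3:95042708-95042764 on the minus strand.
Psmd2: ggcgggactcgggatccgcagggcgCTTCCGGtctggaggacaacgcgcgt
Psmd4: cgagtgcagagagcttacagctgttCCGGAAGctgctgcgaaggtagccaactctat
The last pair shows the bases just before the start of Psmd14, the member that rose most, and of Shfm1, the member that fell most. The Psmd14 stretch (chr2:61711594-61711693, plus strand) has its 2 GC boxes (GGGCGG on either strand) in capitals. In the Shfm1 stretch (chr6:6578664-6578758, minus strand) none of the motifs searched was present.
Psmd14: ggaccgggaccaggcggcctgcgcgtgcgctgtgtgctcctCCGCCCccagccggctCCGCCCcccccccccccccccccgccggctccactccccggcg
Shfm1: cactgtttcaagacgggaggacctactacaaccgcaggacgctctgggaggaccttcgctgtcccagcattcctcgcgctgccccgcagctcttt

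Over whole windows, the ETS motif was in 15 of 37 members (40.5%), against 9.93% of 27025 genes in the table. These and the next shares count every gene of the promoter table, expressed in liver or not, while all members had passed the filter on low counts. Shares among expressed genes alone were not computed, so a difference may not be particular to the members. GC boxes were in 62.2% of members against 38.2% of all genes. The antioxidant core was in 9 of 37 (24.3%) against 14% of all genes, and these 9 included Shfm1, where it lay at bases 20 to 28 after the start. CCAAT was in 40.5% of members and 41.1% of all genes, and the E-box CACGTG in 8.11% and 8.09%. The AP-1 site TGACTCA was in 1 member, Psmd9, or 2.7% against 5.95%. Members with the antioxidant core had a median log2 fold change under sh-Gls2 of 0.45 in OTC and 0.55 in WT, and those without it 0.45 and 0.55. Members with the ETS motif had medians of 0.47 in OTC and 0.52 in WT, against 0.45 and 0.56 without it. A match is a string of letters in this window and not a bound site.

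Under sh-Gls2, nearly the whole 20S and 19S machinery was higher than under the control hairpin, in both strains and by a similar amount. In OTC livers 34 of 44 members were called higher and 4 lower, and in WT livers 34 higher and 3 lower (edgeR adjusted p below 0.05 over all tested genes). As background, the OTC comparison called 42.7% of all tested genes (20.2% higher and 22.6% lower), and the WT comparison 34.8% (17.6% higher and 17.2% lower). The members' median log2 fold change was 0.45 in OTC and 0.53 in WT, where the median of all tested genes was −0.02 and −0.01. The 34 genes called higher were shared by both strains, with folds from 1.15 to 2.07 in OTC and from 1.23 to 1.81 in WT. Since this response was known when the members were listed, these counts describe the list and are not a test of it.

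**Figure D1:**
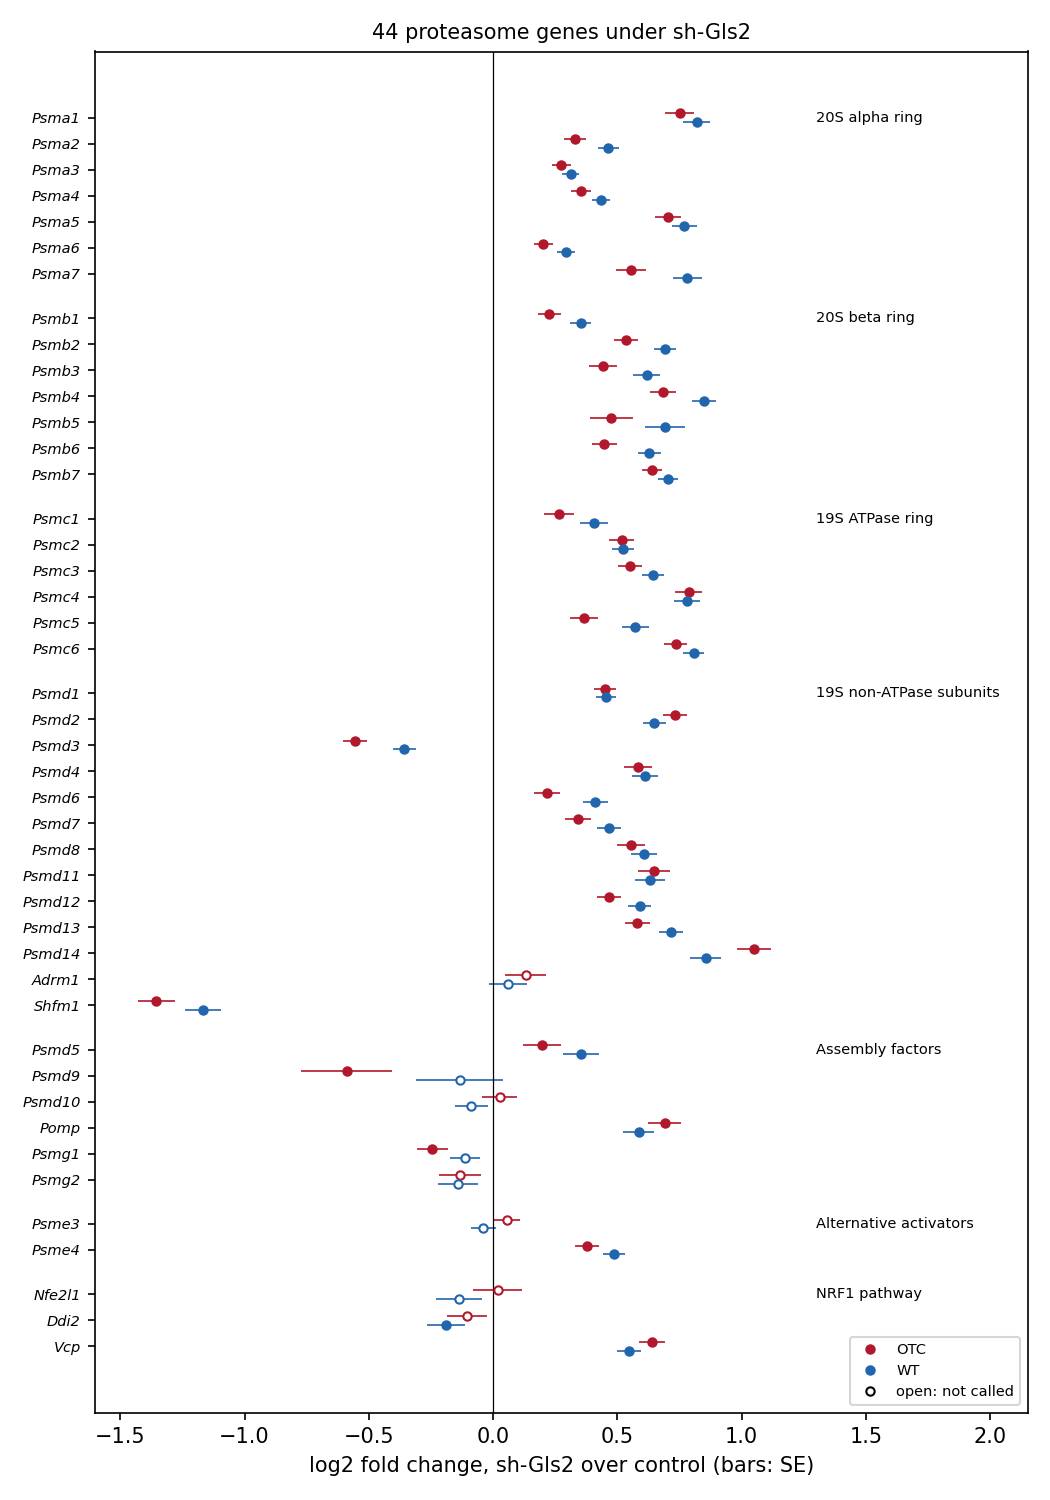
Log2 fold change of each of the 44 genes under sh-Gls2 over control (x axis; bars are SE), in OTC (red, upper point of each pair) and WT (blue), grouped by role down the page; open points were not called. Nearly all 20S and 19S genes lie right of 0, while Shfm1 and Psmd3 lie left of it in both strains.

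The plot of fold changes by role shows 1 direction across the core, with sizes that differed between genes. All 7 alpha genes and all 7 beta genes were called higher in both strains. The alpha ring had a median log2 fold change of 0.35 in OTC and 0.46 in WT, from Psma6 (0.20 ± 0.04 in OTC and 0.29 ± 0.04 in WT, ± SE) to Psma1 (0.75 ± 0.06 and 0.82 ± 0.05). The beta ring had medians of 0.48 in OTC and 0.69 in WT, from Psmb1 (0.23 ± 0.05 and 0.35 ± 0.04) to Psmb4 (0.68 ± 0.05 and 0.85 ± 0.05). No 20S gene was called lower.

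The subunits that cut substrate were Psmb5, Psmb6 and Psmb7. Psmb5, the chymotrypsin-like subunit, was at 55.02, 60.5 and 77.1 CPM (lowest, median and highest) in OTC sh-Gls2 livers, against 37.1, 47.1 and 50.8 CPM in OTC control. In WT it was at 53.6, 71.8 and 96.5 CPM under sh-Gls2, against 40.01, 45.8 and 53.1 CPM under control. Every sh-Gls2 liver was thus above every control liver of its strain, and the WT sh-Gls2 livers spread most widely, with a CV of 19.3%.

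Psmb6, the caspase-like subunit, was at 87.6, 100.2 and 110.0 CPM in OTC sh-Gls2, against 66.7, 74.9 and 79.9 CPM in OTC control. Its WT values were 103, 115 and 126 CPM under sh-Gls2, against 65.5, 75.1 and 85.3 CPM under control. The groups did not overlap in either strain. Psmb7, the trypsin-like subunit, was at 135, 142 and 154 CPM in OTC sh-Gls2, against 84.9, 92.3 and 97.2 CPM in OTC control. WT livers had 139, 155 and 171 CPM of Psmb7 under sh-Gls2, against 86.04, 95.2 and 106 CPM under control. Again no sh-Gls2 liver fell within the control range. Processed pseudogenes named for these genes (Psmb5-ps, Psmb6-ps, Psmb6-ps2 and Psmb7-ps2) are in the GENCODE M21 annotation, and how the authors' counting shared reads with them is not known.

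Psmb4, a structural beta subunit, was at 112, 118 and 130.0 CPM in OTC sh-Gls2, against 67.8, 73.02 and 80.8 CPM in OTC control. Its WT values were 118, 132 and 156 CPM under sh-Gls2, against 66.8, 75.7 and 80.9 CPM under control, again without overlap.

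In the 19S ATPase ring, whose 6 motor subunits unfold the substrate, all 6 genes were called higher in both strains, with medians of 0.53 in OTC and 0.61 in WT. Psmc6 was at 118, 127 and 139 CPM in OTC sh-Gls2, against 74.2, 76.04 and 79.5 CPM in OTC control. WT livers had 112, 134 and 164 CPM of Psmc6 under sh-Gls2, against 73.2, 74.8 and 83.1 CPM under control. The lowest sh-Gls2 liver was well above the highest control liver in each strain. The log2 fold change of Psmc6 was 0.74 ± 0.05 in OTC and 0.81 ± 0.04 in WT, that of Psmc4 0.79 ± 0.05 and 0.78 ± 0.05. Psmc1 had the smallest in this ring, 0.27 ± 0.06 in OTC and 0.41 ± 0.06 in WT.

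The other 19S subunits split: 10 of 13 were called higher and 2 lower in both strains, and the ubiquitin receptor Adrm1 was not called (0.13 ± 0.08 in OTC and 0.06 ± 0.08 in WT). The OTC value of Adrm1 was 0.20 and called on both TPM scales and without OTC control mouse 03. Psmd14, the enzyme that clips ubiquitin chains off the substrate, had the largest rise of all members. It was at 67.8, 73.1 and 87.2 CPM in OTC sh-Gls2, against 30.4, 37.6 and 39.1 CPM in OTC control. In WT it was at 74.4, 94.9 and 117 CPM under sh-Gls2, against 49.7, 52.9 and 62.2 CPM under control. The groups were apart in both strains, with folds of 2.07 in OTC and 1.81 in WT. Psmd2 was at 201, 216 and 244 CPM in OTC sh-Gls2, against 119, 131 and 140.4 CPM in OTC control. WT livers had 213, 265 and 312 CPM of Psmd2 under sh-Gls2, against 154, 172 and 183 CPM under control. Psmd4, the other main ubiquitin receptor of the particle, had log2 fold changes of 0.58 ± 0.06 in OTC and 0.61 ± 0.05 in WT.

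Shfm1 and Psmd3 were the 19S genes that fell. Shfm1, now named Sem1, encodes the smallest subunit of the lid and also belongs to other complexes, among them one with the DNA repair protein BRCA2. Its gene lies on chromosome 6 from 6557294 to 6578663 (GRCm38, minus strand). It was at 10.6, 12.3 and 14.1 CPM in OTC sh-Gls2, against 28.3, 31.8 and 35.1 CPM in OTC control. WT livers had 11.2, 13.4 and 20.2 CPM under sh-Gls2, against 26.5, 31.9 and 35.2 CPM under control. The highest sh-Gls2 liver was below the lowest control liver in each strain, and the fold was 0.391 in OTC and 0.446 in WT.

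Psmd3, a lid subunit that touches Shfm1 in the assembled particle, was at 42.2, 49.4 and 55.6 CPM in OTC sh-Gls2, against 65.3, 72.2 and 75.5 CPM in OTC control. Its WT values were 50.6, 56.5 and 66.4 CPM under sh-Gls2, against 67.5, 71.8 and 82.5 CPM under control. The groups did not overlap in either strain, though in WT the highest sh-Gls2 liver lay close to the lowest control liver. Its log2 fold change was −0.56 ± 0.05 in OTC and −0.36 ± 0.05 in WT.

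**Figure D2:**
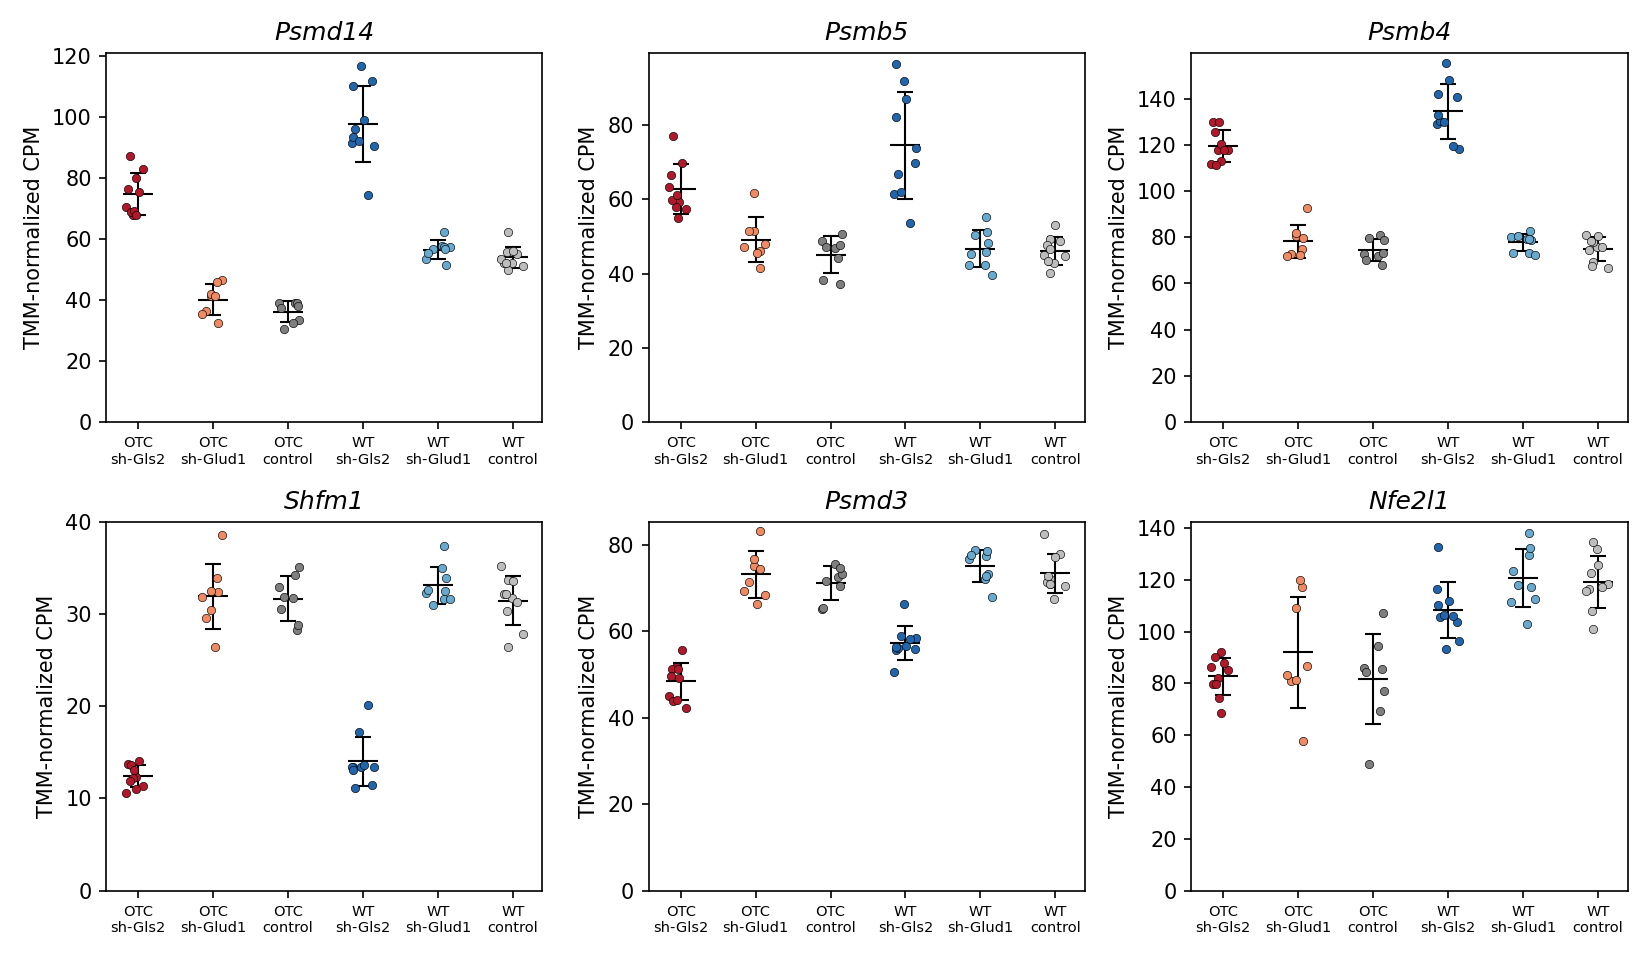
CPM of 6 genes (y axes, from 0) in each liver, 1 point per mouse, with mean and SD bars, in the 6 groups on the x axes. Psmd14, Psmb5 and Psmb4 are higher and Shfm1 and Psmd3 lower in both sh-Gls2 groups, while Nfe2l1 has a lower mean in the OTC groups than in the WT groups under each hairpin.

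Members without overlap between sh-Gls2 and control livers were 29 higher and 2 lower in OTC, and 33 higher and 2 lower in WT. Of all tested genes, 6.74% did not overlap in OTC (3.59% higher and 3.15% lower) and 4.76% in WT (2.88% higher and 1.88% lower). The 2 lower members were Shfm1 and Psmd3 in both strains.

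On the length-normalized TPM scale, which allows sums across genes, the 33 subunits of 20S and 19S together made up 4775 ± 103 TPM in OTC sh-Gls2 livers, against 3380 ± 156 TPM in OTC control (SD, n = 10 and 8). In WT they made up 4782 ± 314 TPM under sh-Gls2, against 3241 ± 93.6 TPM under control (SD, n = 10 each). The lowest sh-Gls2 liver, at 4636 TPM in OTC and 4373 TPM in WT, was above the highest control liver, at 3601 TPM in OTC and 3369 TPM in WT. The 19S sum relative to the 20S sum was 0.768 ± 0.012 in OTC sh-Gls2 against 0.808 ± 0.046 in OTC control, and 0.770 ± 0.022 in WT sh-Gls2 against 0.847 ± 0.027 in WT control. The ratio overlapped between OTC groups and did not overlap between WT groups. These 19S sums include Shfm1, whose mean was 51.3 TPM in OTC sh-Gls2 against 132.7 TPM in OTC control. In WT it was 52.6 TPM under sh-Gls2 against 128.0 TPM under control. The ratio without Shfm1 was not computed, so a lower ratio does not show that the other 19S subunits rose less.

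Shfm1 took 2.47 ± 0.25% of summed 19S TPM in OTC sh-Gls2, against 8.79 ± 0.75% in OTC control, and 2.56 ± 0.66% in WT sh-Gls2 against 8.61 ± 1.34% in WT control. Psmd3 took 1.90 ± 0.15% in OTC sh-Gls2, against 3.73 ± 0.20% in OTC control, and 2.04 ± 0.17% in WT sh-Gls2 against 3.64 ± 0.15% in WT control. Neither share overlapped between sh-Gls2 and control livers of a strain.

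In the order of mean TPM, Vcp stood first in WT control at 196 TPM, followed by Psma3 and Psmb1 at 164 TPM each and Pomp at 161 TPM. Differences among the last 3 were smaller than their SDs. Psmd10 was the lowest in every group, at 9.45 TPM in OTC sh-Gls2, 8.98 TPM in OTC control, 8.52 TPM in WT sh-Gls2 and 8.996 TPM in WT control. Shfm1 ranked number 34 of the 44 in OTC sh-Gls2, against 11 in OTC control, and 34 in WT sh-Gls2 against 10 in WT control.

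**Figure D3:**
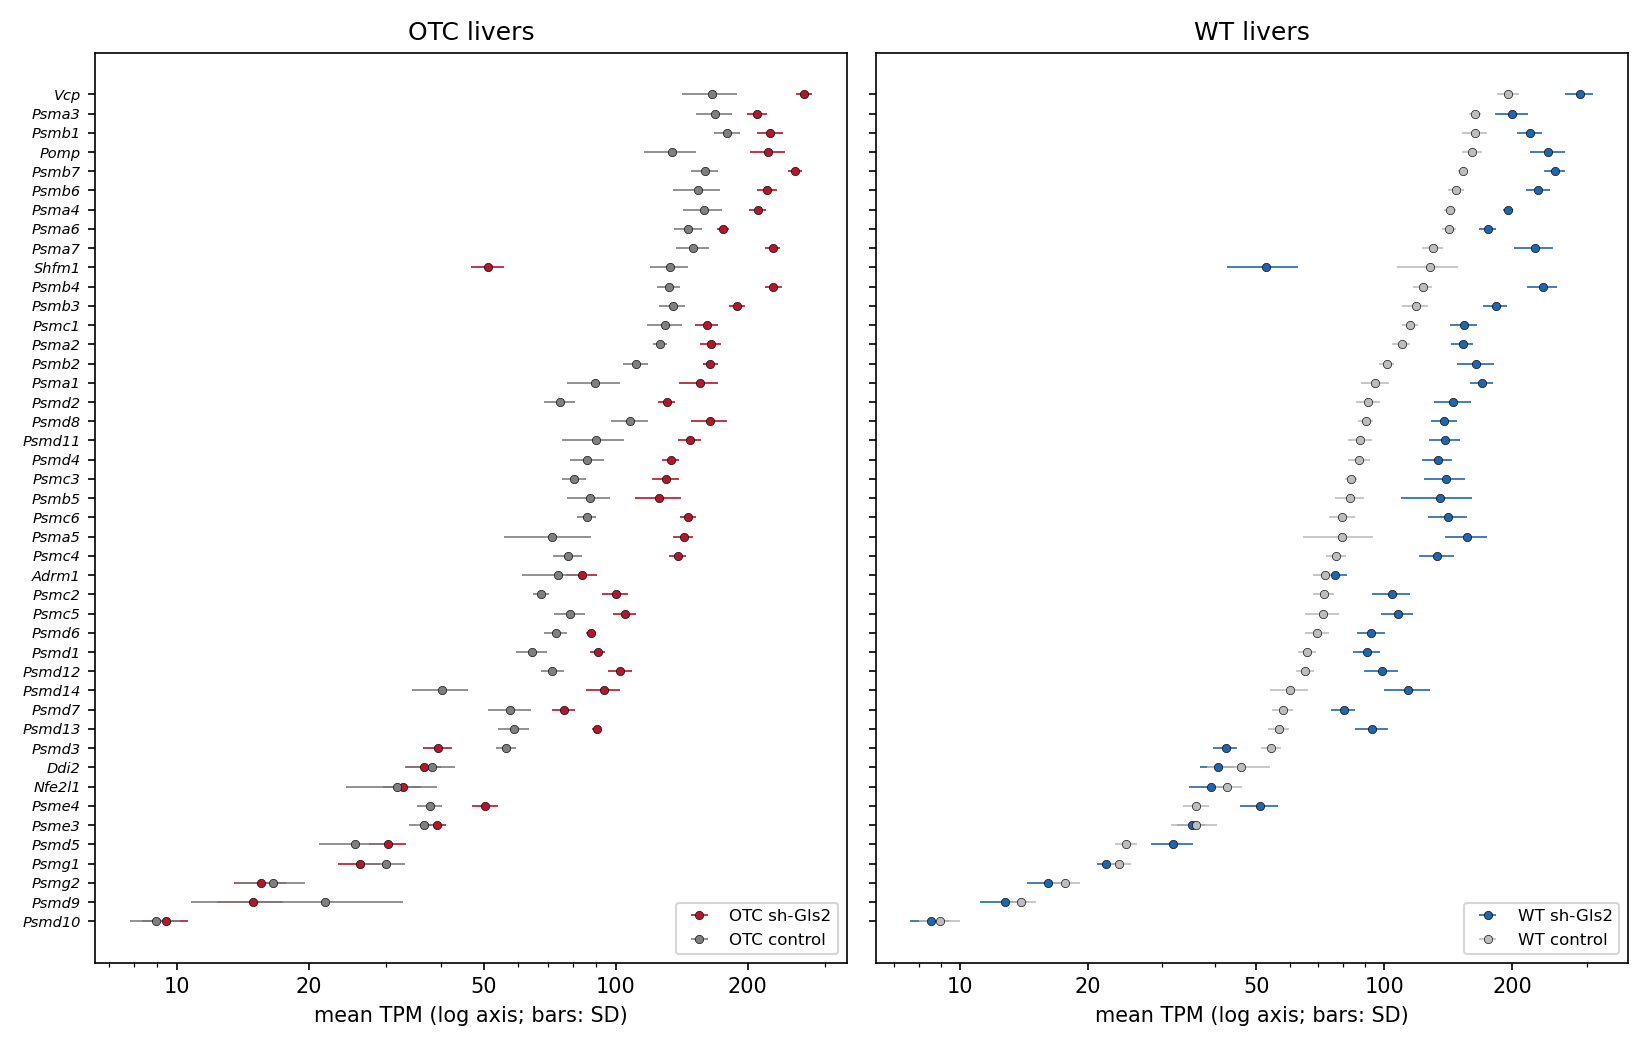
Mean TPM of the 44 genes (log x axis; bars are SD) in OTC livers (left) and WT livers (right), under sh-Gls2 (colour) and control (grey), ordered by the WT control mean. Shfm1 drops out of the upper part of the order under sh-Gls2, while most other subunit genes move right.

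Assembly factors did not follow the subunits as a group. Pomp, which matures the 20S core, was called higher, with log2 fold changes of 0.69 ± 0.07 in OTC and 0.59 ± 0.06 in WT. It was at 75.8, 91.7 and 108 CPM in OTC sh-Gls2, against 42.96, 59.8 and 63.1 CPM in OTC control. WT livers had 93.8, 116 and 129 CPM of Pomp under sh-Gls2, against 70.9, 75.4 and 87.2 CPM under control. Psmd5, a chaperone of the 19S base, was called higher in both strains (0.20 ± 0.08 in OTC and 0.35 ± 0.07 in WT). Without OTC control mice 03 and 67 its OTC value was 0.11 and was not called. The OTC call of Psmd5 was lost in 4 of 10 other settings and on leaving out any of 5 single mice. Psmg1, a chaperone of the alpha ring, was called lower in OTC (−0.24 ± 0.06) and not in WT (−0.11 ± 0.06), and its partner Psmg2 was not called in either (−0.13 ± 0.09 and −0.14 ± 0.08). Psmd10, another base chaperone, was not called (0.03 ± 0.07 and −0.09 ± 0.07).

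Psmd9, also a base chaperone, rested on single mice. OTC control mouse 03 had 72.1 CPM and mouse 67 had 46.04 CPM, while the other 6 OTC control livers had 20.3 to 32.02 CPM. In OTC sh-Gls2 livers it lay between 15.6 and 27.7 CPM. The OTC log2 fold change was −0.59 ± 0.18 with all mice and was called, and it was −0.16 without mice 03 and 67 and was not called. Among OTC sh-Glud1 livers, mice 65 and 58 were also high, at 66.5 and 49.5 CPM. In WT livers Psmd9 was not called (−0.13 ± 0.17), and all WT values lay between 16.01 and 27.2 CPM.

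Of the alternative activators, Psme4, the large cap also called PA200, was called higher (0.38 ± 0.05 in OTC and 0.49 ± 0.05 in WT). Psme3, the nuclear activator PA28 gamma, was not called (0.06 ± 0.05 and −0.04 ± 0.05).

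In the NRF1 pathway, the mRNA of the segregase was called higher and that of the transcription factor was not called. Vcp was at 452, 492 and 522 CPM in OTC sh-Gls2, against 248, 329 and 346 CPM in OTC control. WT livers had 480.1, 583 and 656 CPM of Vcp under sh-Gls2, against 377, 399 and 428 CPM under control, and no liver overlapped in either strain. Nfe2l1 was at 68.7, 83.8 and 92.2 CPM in OTC sh-Gls2, against 48.9, 85.04 and 107 CPM in OTC control. In WT it was at 93.2, 106 and 133 CPM under sh-Gls2, against 101, 118 and 135 CPM under control. These ranges overlapped widely, and the gene was not called (0.02 ± 0.10 in OTC and −0.14 ± 0.09 in WT). NRF1 is controlled at the protein level, which RNA does not measure. Ddi2 was at −0.11 ± 0.08 in OTC, not called, and at −0.19 ± 0.08 in WT, called. The WT call of Ddi2 was lost in 3 of 10 other settings and on leaving out any of 12 single mice.

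The sizes of the sh-Gls2 effect in OTC and WT, which share no library, can be set side by side. Across the 44 members their Pearson r was 0.957 (0.932 without Shfm1) and 41 had the same sign, and r was 0.780 across all 13311 tested genes, which are not independent replicates. Of the 34 genes higher in both strains, 6 had the larger log2 fold change in OTC and the other 28 in WT. The test of the difference between strains called none of the 44 members (smallest edgeR adjusted p = 0.194, for Psmd3, whose difference was −0.20 ± 0.07). It reached an unadjusted p below 0.05 for 10 of 44 members and for 1496 of all 13311 tested genes, and called no member by DESeq2 either. Among all tested genes it called 0.338%, 0.12% with a larger and 0.218% with a smaller value in OTC. The next smallest were Psma7 (−0.23 ± 0.08) and Psmd6 (−0.19 ± 0.07), both with an edgeR adjusted p of 0.269.

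**Figure D4:**
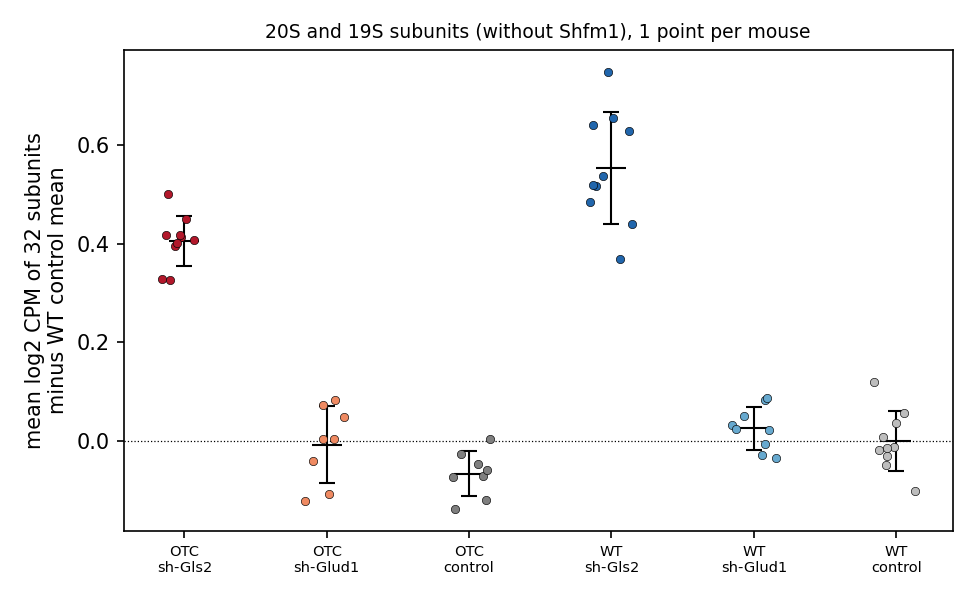
Mean log2 CPM of the 32 subunits of 20S and 19S other than Shfm1, minus the WT control mean (y axis), 1 point per liver, with mean and SD bars, in the 6 groups (x axis). Both sh-Gls2 groups lie wholly above all 35 other livers.

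The mean of 32 subunits per liver, shown in the plot of 1 point per liver, was 0.41 ± 0.05 log2 units above the WT control mean in OTC sh-Gls2, −0.01 ± 0.08 in OTC sh-Glud1 and −0.07 ± 0.05 in OTC control (SD, n = 10, 8 and 8). For WT the values were 0.55 ± 0.11 under sh-Gls2 and 0.03 ± 0.04 under sh-Glud1 (SD, n = 10 and 9). Values ran from 0.33 to 0.50 in OTC sh-Gls2 and from 0.37 to 0.75 in WT sh-Gls2, and the highest of all other livers, a WT control, was at 0.12. Shfm1 was left out of this mean with its opposite movement already known, and the mean with Shfm1 included was not computed.

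The Glud1 hairpin called none of the 44 members in OTC (smallest edgeR adjusted p = 0.988) or in WT (smallest adjusted p = 0.93), in a comparison that called 0.015% of all tested genes in OTC and 0.0225% in WT. At an unadjusted p below 0.05 there were 6 members in OTC, where 639 of all 13311 tested genes were, and 0 members in WT, where 697 genes were. DESeq2 also called 0 members. Median log2 fold changes were 0.05 in OTC and 0.02 in WT, and 43 of 44 members were positive in OTC and 31 in WT. The median of all tested genes was −0.002 in OTC and −0.005 in WT. Subunits varied together within groups, as described below, so these signs are not 44 separate observations. The member with the smallest p was in OTC Psmd1 (0.12 ± 0.05) and in WT Psmc4 (0.09 ± 0.05). Shfm1 was at 26.4, 32.1 and 38.6 CPM in OTC sh-Glud1 and at 30.98, 32.5 and 37.5 CPM in WT sh-Glud1, overlapping the control livers widely.

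Set against sh-Glud1, the other hairpin with a target, sh-Gls2 called 33 members higher and 4 lower in OTC and 34 higher and 3 lower in WT. Background calls made up 40.5% of tested genes for OTC (19.5% higher and 21.1% lower) and 29.6% for WT (15.5% higher and 14.2% lower). Without overlap were 26 members higher and 2 lower in OTC, where 6.36% of all tested genes did not overlap (3.33% higher and 3.04% lower). In WT 32 were higher and 2 lower without overlap, with a background of 6.18% (3.51% higher and 2.67% lower). The call matched that against control for 43 of 44 members in OTC and 44 of 44 in WT. These comparisons reuse the sh-Gls2 libraries, so they are not separate evidence. Shfm1 had log2 fold changes of −1.37 ± 0.08 in OTC and −1.24 ± 0.07 in WT, and Psmc6 0.70 ± 0.05 and 0.80 ± 0.04.

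Strain was compared under the control hairpin, where 14 of 44 members were called, a share near that of all tested genes. Against WT control, 11 members were called lower and 3 higher in OTC control, where 36.3% of all tested genes were called (16.4% lower and 19.9% higher). All 3 genes of the NRF1 pathway were lower in OTC control: Nfe2l1 by a log2 fold change of −0.55 ± 0.10 (edgeR adjusted p = 2.76e-05), Ddi2 by −0.37 ± 0.08 (adjusted p = 0.000328) and Vcp by −0.33 ± 0.05 (adjusted p = 1.96e-06). For Vcp every OTC control liver was below every WT control liver, while Nfe2l1 and Ddi2 overlapped.

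Psmd14 showed the largest strain difference, at 30.4, 37.6 and 39.1 CPM in OTC control against 49.7, 52.9 and 62.2 CPM in WT control (log2 fold change −0.58 ± 0.07, edgeR adjusted p = 3.92e-09). Psmd2 was at −0.38 ± 0.05 (edgeR adjusted p = 4.16e-08), and Pomp at −0.38 ± 0.07 (edgeR adjusted p = 1.08e-05). Psmd14, Psmd2, Pomp, Psmc2 and Vcp lay wholly lower in OTC control, 5 of 44 members, and no member lay wholly higher. Of all tested genes 3.41% did not overlap, 1.91% lower and 1.5% higher. Psma1, Psma5, Psmc2, Psmc3 and Psmd1 were lower by −0.20, −0.21, −0.20, −0.16 and −0.14. Shfm1 was at 0.01 ± 0.07 and was not called.

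Psmg1 (0.23 ± 0.06), Psmd9 (0.54 ± 0.18) and Psmd8 (0.15 ± 0.05) were called higher in OTC control, and without OTC control mice 03 and 67 only Psmg1 was. The strain counts depend on scale. On log2(TPM + 1) with limma, 12 members were called higher and 6 lower, with the median of all genes at 0.10, and the calls of Psma1, Psma5, Psmc2, Psmc3 and Psmd1 were lost. The differences of Psmd14, Psmd2, Vcp, Pomp, Nfe2l1 and Ddi2 kept their direction and their call on that scale. Stock and Otc allele cannot be told apart here.

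Within groups, the subunits also varied together from mouse to mouse. Differences between group means do not enter this measure, but differences between mice in the size of the sh-Gls2 response do. The mean of 32 subunits had an SD of 0.11 log2 units in WT sh-Gls2, against 0.04 to 0.08 in the other groups. How far that spread entered the r values was not tested. After subtraction of each group's mean, the 33 genes of 20S and 19S had a median pairwise Pearson r of 0.44 over 55 livers, and 499 of 528 pairs were positive. The share of positive pairs among other genes was not computed. Each gene was also compared with the mean of the other subunits. Psma2 had an r of 0.77, Psmd3 of 0.56, Psmd14 of 0.34 and Shfm1 of 0.02. Nfe2l1 was at −0.11. The livers share library depth and preparation effects, so these values are descriptions.

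The non-members with the highest r to the subunit mean were Pdap1 (0.72), 1110008F13Rik (0.72), Mrps34 (0.71), Mrpl20 (0.66), Mrpl51 (0.65), Gps1 (0.65), Map2k2 (0.64), D8Ertd738e (0.64), Usp5 (0.64) and Flywch1 (0.63). The median over all tested non-members was −0.01. These r values also hold the spread of the response within the sh-Gls2 groups, so they are not apart from that response. Of these 10, Usp5, which recycles unanchored ubiquitin chains, was also called higher under sh-Gls2 (0.40 ± 0.05 in OTC and 0.61 ± 0.05 in WT), as was Flywch1 (0.45 ± 0.09 and 0.94 ± 0.09). Pdap1, 1110008F13Rik, Mrps34, Map2k2 and D8Ertd738e were called higher in WT, at 0.13 to 0.21, and were not called in OTC. Mrpl20 (−0.25 ± 0.10), Mrpl51 (−0.15 ± 0.05) and Gps1 (−0.13 ± 0.04) were called lower in OTC and were not called in WT.

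Around the members, other genes of ubiquitin handling were taken from lists by function. Of all tested genes, sh-Gls2 called 20.2% higher and 22.6% lower in OTC. In WT it called 17.6% higher and 17.2% lower. These shares stand beside every list below, and a list near them shows nothing particular to its genes. All 5 genes of the immunoproteasome and its PA28 activator were called higher under sh-Gls2 in both strains, with Psmb8 at 0.67 ± 0.13 in OTC and 0.93 ± 0.12 in WT, and Psme1 at 0.33 ± 0.07 and 0.44 ± 0.06. Of 10 tested genes for further subunits, assembly factors and inhibitors, 4 were called higher in both strains and 1 lower in OTC. The 4 were Zfand2a, an arsenite-inducible partner of the 19S particle (1.05 ± 0.12 in OTC and 0.77 ± 0.11 in WT), Txnl1 (0.39 ± 0.05 and 0.38 ± 0.05), the inhibitor gene Psmf1 (0.36 ± 0.08 and 0.43 ± 0.07) and AI314180 (0.30 ± 0.06 and 0.29 ± 0.06).

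Usp14, a deubiquitinase bound to the 19S particle, was the member of its list of 4 called higher (0.58 ± 0.06 in OTC and 0.54 ± 0.05 in WT), while Uchl5 was called lower in OTC (−0.19 ± 0.05) and Ube3c in WT (−0.13 ± 0.04). Of 5 shuttle receptors, which carry ubiquitinated proteins to the proteasome, 3 were called higher in both strains, led by Ubqln2 (0.56 ± 0.07 and 0.71 ± 0.07), with Rad23b and Ubqln1 under 0.21 in each. The WT call of Ubqln1 was lost in 4 of 10 other settings and on leaving out any of 11 single mice, and that of Rad23b in 2 settings and on leaving out either of 2 mice.

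Of 16 tested VCP cofactors and NRF1-processing genes, 4 were called higher in both strains, all VCP adaptors: Nploc4 (0.63 ± 0.06 in OTC and 0.56 ± 0.05 in WT), Nsfl1c (0.53 ± 0.06 and 0.56 ± 0.05), Ufd1l (0.41 ± 0.07 and 0.47 ± 0.06) and Ubxn4 (0.62 ± 0.09 and 0.55 ± 0.08). The same list had 3 genes called lower in OTC (Ogt, Stt3b and Ubxn6) and 1 in WT (Stt3b). Ngly1, which removes glycans from NRF1, was not called (0.06 ± 0.05 and 0.05 ± 0.04).

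Of 6 listed genes around NRF1 and NRF2, among them the NRF2 gene itself and its inhibitor Keap1, 3 were called higher in OTC and 4 in WT. Mafk, a small MAF protein that pairs with both factors, was at 0.93 ± 0.12 in OTC and 1.13 ± 0.11 in WT, and Nfe2l2, the gene of NRF2, at 0.42 ± 0.17 and 0.50 ± 0.16. The OTC call of Nfe2l2 was lost without control mice 03 and 67, where its value was 0.25, and on leaving out any of 9 single mice. Keap1, the third gene of this list called in OTC (0.16 ± 0.05), was at 0.08 without those mice and was not called. Of 9 NRF2 targets 6 were called higher in each strain, among them Gsr, which regenerates reduced glutathione (0.82 ± 0.08 in OTC and 0.81 ± 0.08 in WT), and Srxn1 (0.93 ± 0.18 and 0.84 ± 0.17).

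Of 6 genes for ubiquitin and its E1 enzymes, Ubb was called higher in both strains (0.41 ± 0.10 and 0.47 ± 0.09) and Rps27a lower (−0.62 ± 0.08 and −0.34 ± 0.08), and Uba1 was called lower in OTC (−0.09 ± 0.04). Of 10 autophagy genes 3 were called higher and 1 lower in each strain, with the cargo receptor Sqstm1 at 0.74 ± 0.08 in OTC and 0.78 ± 0.07 in WT. The lower gene in OTC was Map1lc3b (−0.26 ± 0.09), which was at −0.05 and not called without OTC control mice 03 and 67, and the lower gene in WT was Map1lc3a. The muscle ubiquitin ligase Fbxo32 was not called.

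Markers of some other cells also moved with sh-Gls2. The shares of all tested genes were again 20.2% higher and 22.6% lower in OTC, and 17.6% and 17.2% in WT. Of 7 markers of dividing cells, 6 were called higher in OTC and 7 in WT, and their sum ran from 5.57 to 40.2 CPM in OTC sh-Gls2 against 2.63 to 4.38 CPM in OTC control, and from 10.4 to 61.02 CPM in WT sh-Gls2 against 3.11 to 8.97 CPM in WT control. Of 8 macrophage markers, 6 were called higher in OTC and 5 in WT, with sums of 117 to 204 CPM in OTC sh-Gls2 against 61.6 to 138 CPM in OTC control, and 106 to 171 CPM in WT sh-Gls2 against 76.4 to 140 CPM in WT control. Of 7 stellate cell markers, 4 were higher in OTC and 3 in WT, with sums of 303 to 416 CPM in OTC sh-Gls2 against 211 to 275 CPM in OTC control, and 229 to 390.5 CPM in WT sh-Gls2 against 214 to 279 CPM in WT control. Of 7 endothelial markers 6 were higher in OTC and 1 in WT, and of 5 bile duct markers 1 in each strain. Bile duct sums ran from 25.2 to 75.6 CPM in OTC sh-Gls2 against 17.02 to 44.3 CPM in OTC control, and from 26.9 to 71.02 CPM in WT sh-Gls2 against 20.9 to 74.1 CPM in WT control. No erythroid marker of 5 was called, with sums of 24.8 to 336 CPM in OTC sh-Gls2 against 9.35 to 324 CPM in OTC control, and 98.5 to 354 CPM in WT sh-Gls2 against 98.99 to 369 CPM in WT control. None of 8 lymphocyte markers was called, and of 8 hepatocyte markers 4 were lower in OTC and 1 in WT. The part of these cells in the members' values was not tested.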

How the data were processed

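Liver mRNA of 55 mice was sequenced from stranded poly(A) libraries, per the labels' protocols. The authors deposited raw read counts per gene symbol and TPM values. GRCm38, CASAVA 1.8.2 and FastQC are named in the submitters' processing notes, and the aligner, counter and annotation are not given in the sources used here. The mouse number of 1 OTC control column matches no sample title, so that library was placed by its strain and vector alone.

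Counts were tested with edgeR 4.0.16 (R 4.3.3): filterByExpr (minimum count 10, total 15), TMM scaling, a quasi-likelihood F test with 1 term per group over all 55 libraries, and Benjamini-Hochberg adjustment over 13311 genes, called below 0.05, two-sided. The standard error (SE) is the log2 fold change over the square root of F. The deposited TPM values gave sums and levels between genes, and limma 3.58.1 on log2(TPM + 1) and log2(TPM + 0.1) gave alternatives, as did DESeq2 1.42.0. Reads of a PCR-amplified library without molecular identifiers are not independent molecules, so errors are given between mice. Within-group library pairs (227) were checked for duplicates, and the smallest chi-square per degree of freedom was 10.5. The scripts were tested on simulated data.

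Members, gene lists and naming rule (the 3 smallest adjusted p in each comparison, the catalytic subunits, Shfm1 and Nfe2l1, up to 3 called genes per pathway list, and the 10 non-members most correlated with the subunits) were chosen with earlier results of these data known. Psmd3, Psmd9, Pomp and some pathway genes were named after their values were seen. Paaf1 and Ecpas had no row under those symbols, and Ddi1 and Trim63 did not pass the filter. Some results on withheld items are not reported here.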

Additional observations from a re-analysis of the deposited data

Results flagged for a closer look

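In 12 of 264 sets of 1 member in 1 group, the highest or lowest liver stood farther from its neighbour than Dixon's 95% limit allows. Chance flags about 1 in 20 such sets. In OTC control, mouse 03 was low for Psma1 (46.7 CPM), Psma3 (86.4 CPM) and Pomp (42.96 CPM). In WT control, mouse 02 was high for Psmd12 (78.9 CPM), Adrm1 (77.4 CPM) and Pomp (87.2 CPM), and mouse 07 for Psmd14 (62.2 CPM) and Psme3 (74.4 CPM). Mouse 01 of WT sh-Gls2 was high for Psmd3 (66.4 CPM). Mouse 65 of OTC sh-Glud1 was high for Psma3 (112 CPM). In WT sh-Glud1, mouse 15 was high for Psmd13 (55.9 CPM) and mouse 32 for Psmg1 (17.99 CPM).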

How the results depend on the processing

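No paired analysis was possible because the mouse numbers are all different and pair no mice across groups. Over 10 other settings, sh-Gls2 called 33 to 35 members higher and 3 to 4 lower in OTC, and 34 higher and 2 to 3 lower in WT. Leaving out 1 mouse at a time gave 33 to 34 higher and 3 to 4 lower in OTC, and 34 higher and 2 to 3 lower in WT. The sh-Glud1 comparisons called 0 members in all of these. Between OTC control and WT control, the 3 members called higher became 1 when only those groups were fitted, 1 on omitting OTC control mice 03 and 67, 1 on also omitting WT control mouse 13, and 12 on both log2(TPM + 1) and log2(TPM + 0.1). It was 2 without the filter on low counts. The count called lower was 11 in the main fit, 6 on both TPM scales and between 11 and 13 in the other settings. With 1 mouse left out these counts ran from 1 (without OTC control mouse 03) to 4 higher and from 11 to 12 lower. On the TPM scales the median of all genes moved to 0.10 and 0.12. The cause of these shifts was not tested. Nfe2l1 and Psmd10, which were not called, changed sign. Nfe2l1 in OTC under sh-Gls2 was at −0.11 on omitting OTC control mice 03 and 67 and −0.10 on also omitting WT control mouse 13. With 1 mouse left out it ran from −0.061 (mouse 03) to 0.085, and Psmd10 in OTC from −0.0042 (sh-Gls2 mouse 21) to 0.065. Of the members called under sh-Gls2, 36 of 38 in OTC and 36 of 37 in WT kept their call in every setting and omission. Between the strains 7 of 14 did.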
